A study of Sus scrofa with 6 samples.

Results

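Ferroptosis is a form of cell death driven by peroxidation of polyunsaturated phospholipids in the presence of iron, and 9 genes that set a cell's defence against it, or supply the lipids it consumes, were followed in the abdominal aorta of Wuzhishan pigs. They were GPX1, GPX3, GPX4, SLC7A11, SLC3A2, ACSL4, LPCAT3, AIFM2 and GCH1, taken by symbol from a table of 30477 genes, in which each symbol had 1 entry. The deposited annotation places 5 of the 9, GPX4, SLC7A11, SLC3A2, ACSL4 and LPCAT3, in the KEGG ferroptosis pathway. The pigs were male, and 3 ate a normal chow diet (NC group) while 3 ate a diet rich in fat, cholesterol and fructose (HFCF group) for 6 months, and the labels name no genetic alteration in either group. The sample labels give an age of 3 to 4 months for both groups without saying at which point, and the methods give an older age already at acquisition, so the age at sampling is not settled here. One RNA library was made from each pig's vessel wall, so each value averages all the cells of the sample, and a bulk library cannot tell fewer cells of a type from less RNA per cell. Levels are given as FPKM, fragment counts scaled to transcript length and to the mapped reads of the library, which corrects for length and so allows levels of different genes to be set side by side.

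Lipid hydroperoxides are normally cleared by GPX4, a selenium-containing peroxidase that works inside membranes and spends glutathione. Glutathione needs cysteine, which enters cells as cystine through an exchanger built from the transport subunit SLC7A11 and the chaperone subunit SLC3A2. ACSL4 and LPCAT3 work on the opposite side, activating long polyunsaturated fatty acids and placing them into membrane phospholipids, where they can be oxidised. AIFM2, also called FSP1, and GCH1 act without GPX4, the former by regenerating reduced coenzyme Q and the latter by starting the synthesis of tetrahydrobiopterin, a radical-trapping cofactor. In the artery wall, lipid peroxidation and iron are studied mostly in the context of atherosclerotic plaque.

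Levels in the 6 libraries differed in ways that touch every comparison. FPKM summed to 272207 to 287141 in the NC libraries and to 330222 to 338690 in the HFCF libraries, and the mitochondrial protein-coding genes held 4.55% to 6.78% of these sums in the NC group against 8.79% to 13.2% in the HFCF group. Across the 15384 genes tested, the median difference on the log2(FPKM + 0.1) scale (HFCF minus NC, called the log2 difference from here on) was 0.32 with the deposited values, 0.09 after rescaling to TPM (every library brought to one total), -0.003 after median-ratio scaling and -0.07 after quantile normalization, so differences are also given relative to that median. Relative depths, with the first NC library set to 1, lay between 1 and 1.37, and the absolute depth behind each value is unknown. The 9 contractile smooth muscle markers of an aortic wall were strongly expressed, none of them at 0 in all libraries. They summed to 16495 to 23857 FPKM in the NC group and 8388 to 13315 FPKM in the HFCF group, while 13 macrophage markers summed to 63.8 to 77.5 FPKM and 903 to 2303 FPKM. HFCF 1 had the highest macrophage sum and also 2883 FPKM of red cell markers, against 22.0 to 178 FPKM in the other 5 libraries.

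Of the 9 genes, ACSL4 alone rose in the HFCF group and none fell, at an adjusted p under 0.05 from limma with Benjamini-Hochberg adjustment over all tested genes. This is 1 of the 8 genes that passed the filter of a mean of 0.1 FPKM (12.5%), against 28.9% of all tested genes called in either direction, 22.8% that rose and 6.16% that fell, so the share called among the 8 was below that of the whole table. SLC7A11 was below the filter. At an unadjusted limma p under 0.05 there were 3 genes, ACSL4 and LPCAT3 with higher and SLC3A2 with lower levels. The 3 HFCF values lay entirely above the 3 NC values in 2 of the 9 genes, ACSL4 and LPCAT3, and entirely below in none, where 36.1% and 12.1% of tested genes did so, 48.2% together. A positive log2 difference was found in 6 of the 8, against 65.7% of tested genes, and the median of the 8 was 0.44, or 0.12 more than that of the whole tested table.

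**Figure D1:**
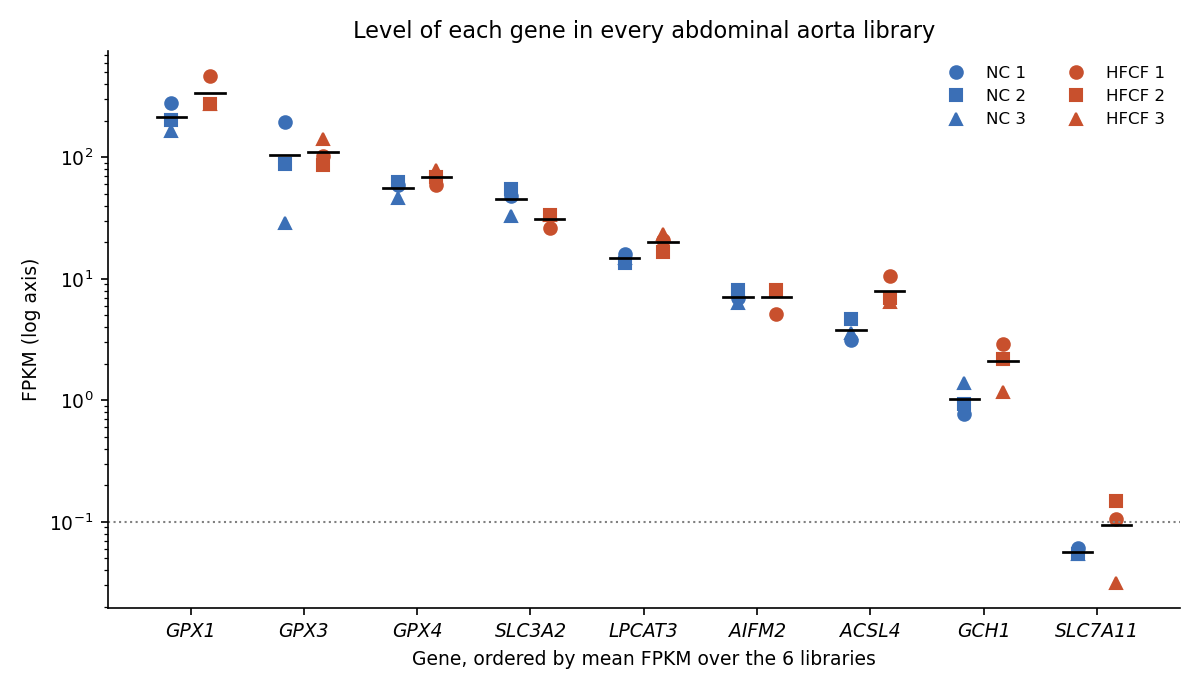
FPKM of the 9 genes on a log axis, ordered by mean level, with 1 point per library (blue NC, red HFCF), a bar at each group mean and a dotted line at the filter of 0.1 FPKM. ACSL4 and LPCAT3 are the genes whose groups are fully separated, GPX3 is widely spread in the NC group, and SLC7A11 lies near or under the dotted line in every library.

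The 9 genes covered levels from 467 FPKM down to 0.032 FPKM in single libraries. GPX1 stood highest, above 98.9% of tested genes in the NC group, followed by GPX3, GPX4 and SLC3A2, each above 94.4% or more of them. LPCAT3, AIFM2 and ACSL4 were at intermediate levels, GCH1 stood above 34.0%, and SLC7A11 came last at 3.14%. Neighbours in this order were not always distinct, since the ranges over the 6 libraries overlapped between GPX1 and GPX3, GPX3 and GPX4, GPX4 and SLC3A2, and AIFM2 and ACSL4. They did not overlap between SLC3A2 and LPCAT3, LPCAT3 and AIFM2, ACSL4 and GCH1, or GCH1 and SLC7A11.

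**Figure D2:**
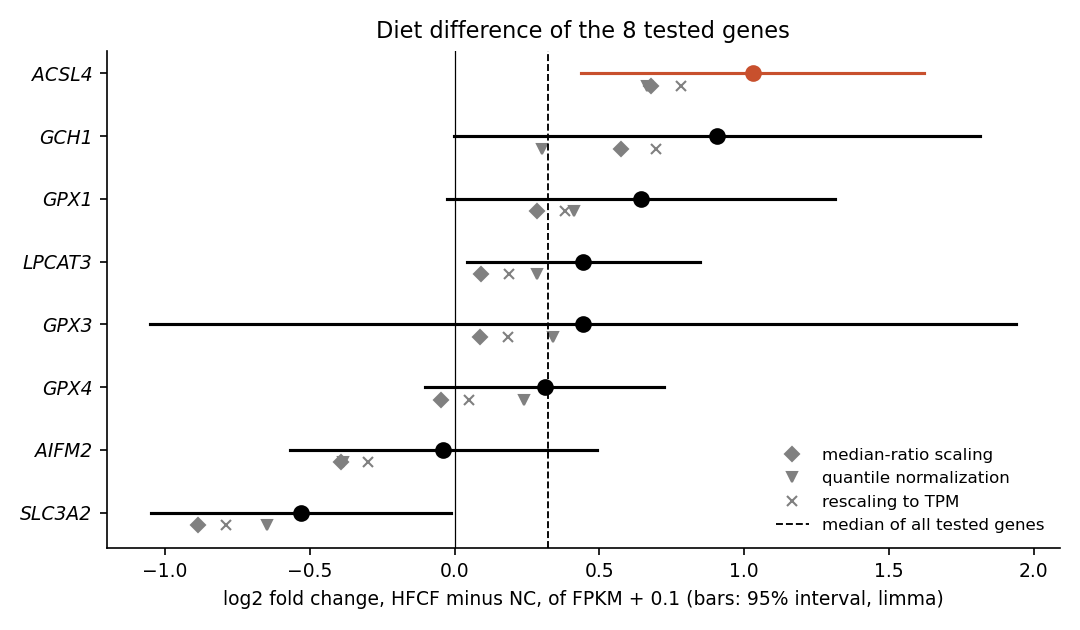
Log2 difference of FPKM + 0.1, HFCF minus NC, of the 8 tested genes, with 95% intervals from limma, where red marks an adjusted p under 0.05, grey symbols give the value under 3 other scalings and the dashed line is the median of all tested genes. The intervals of ACSL4 and LPCAT3 lie above 0 and that of SLC3A2 below it, and only ACSL4 is red. GPX4 sits on the dashed line, and its sign turns from 0.31 to -0.05 under median-ratio scaling.

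Among the glutathione peroxidases, no member passed the test. GPX4 (ENSSSCG00000024052), the phospholipid hydroperoxidase, had 58.8, 62.7 and 46.8 FPKM in the NC libraries and 59.7, 69.3 and 79.5 FPKM in the HFCF libraries. The groups overlapped, with HFCF 1 between the NC values. Means were 56.1 ± 8.30 and 69.5 ± 9.87 FPKM (SD, n = 3 each), a log2 difference of 0.31 with an SE of 0.17 and a 95% interval from -0.10 to 0.72 (limma, adjusted p = 0.220). That interval leaves out a doubling of the transcript but not a smaller rise or a slight fall. Relative to the median of all tested genes GPX4 differed by -0.01, and its sign changed to -0.05 under median-ratio scaling.

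GPX1 (ENSSSCG00000033727), the abundant cytosolic peroxidase that reduces hydrogen peroxide and soluble hydroperoxides, had 279.7, 203 and 164 FPKM in the NC group and 467, 277 and 274 FPKM in the HFCF group. HFCF 1 stood far above the others, and the remaining HFCF values were just under NC 1. The log2 difference was 0.64 with an SE of 0.28 (95% interval -0.03 to 1.31, limma, adjusted p = 0.132), and 0.39 without HFCF 1 (adjusted p = 0.280). GPX3 (ENSSSCG00000036438), the secreted plasma form, had 196.6, 87.7 and 28.7 FPKM in the NC group and 103, 86.0 and 141 FPKM in the HFCF group. Its NC libraries spanned a 6.86-fold range, the widest of the 9 genes in that group, and enclosed all 3 HFCF values. The log2 difference of GPX3 was 0.44 with an SE of 0.63 (limma, adjusted p = 0.628), and leaving out NC 3 turned it to -0.29, so no direction can be given for it. NC 3, the library lowest in GPX3, was also the lowest NC library for summed adipocyte markers (17.8 FPKM against 100.7 and 151), endothelial markers (109 against 205 and 227) and fibroblast markers (2088 against 3641 and 4387), whereas NC 1, the highest in GPX3, was not the highest in any of these. Their part in the GPX3 values was not tested.

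The subunits of the cystine exchanger were at very different levels. SLC7A11 (ENSSSCG00000022649), the subunit that carries cystine, had 0.061, 0.055 and 0.054 FPKM in the NC libraries and 0.106, 0.148 and 0.032 FPKM in the HFCF libraries. HFCF 3 was the lowest of all 6 and the other HFCF libraries the highest, so the groups overlapped. With a mean of 0.076 FPKM it was not tested in the main comparison, and a fit without the filter over 21816 genes gave a log2 difference of 0.27 (limma, adjusted p = 0.535), 0.46 with a pseudocount of 0.01 and 0.05 with a pseudocount of 1. None of these 3 fits passed the test, with adjusted p of 0.480 to 0.697. SLC3A2 (ENSSSCG00000022404), the heavy chain that brings this and several other amino acid transporters to the cell surface, had 48.0, 55.2 and 33.1 FPKM in the NC group and 26.1, 33.5 and 33.3 FPKM in the HFCF group. NC 3 lay among the HFCF values, while the other NC libraries were above all of them. SLC3A2 averaged 45.4 ± 11.3 FPKM and 30.9 ± 4.22 FPKM (SD, n = 3 each), with a log2 difference of -0.53, an SE of 0.22 and a 95% interval from -1.05 to -0.01 (limma, unadjusted p = 0.0464, adjusted p = 0.112). It lay 0.85 below the median of all tested genes, the farthest below it of the 8. It passed the test as lower in HFCF after median-ratio scaling (-0.89, adjusted p = 0.0305), after rescaling to TPM (-0.79, adjusted p = 0.0355) and without NC 3 (-0.74, adjusted p = 0.0354). After quantile normalization it was -0.65, with an adjusted p of 0.0721.

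ACSL4 (ENSSSCG00000012583), the acyl-CoA synthetase that prefers arachidonic and adrenic acid, had 3.14, 4.70 and 3.62 FPKM in the NC group and 10.5, 6.97 and 6.46 FPKM in the HFCF group. Every HFCF library was above every NC library, with HFCF 1 the highest. Mean ACSL4 was 3.82 ± 0.80 FPKM in NC and 7.97 ± 2.19 FPKM in HFCF (SD, n = 3 each), a ratio of 2.09 and a log2 difference of 1.03 with an SE of 0.25 (95% interval 0.44 to 1.62, limma, adjusted p = 0.0230). It also met the thresholds the study used for its own gene lists, a ratio of means above 2 with an unadjusted p under 0.05. Here that p came from limma, and the study's own test was not repeated. ACSL4 was the only one of the 9 to do so, against 20.7% of tested genes in the higher direction and 4.82% in the lower. The rise lay 0.71 above the median of all tested genes. Under the 3 other scalings the log2 difference was 0.66 to 0.78 and the adjusted p 0.0569 to 0.0825, so the call was lost while the direction stayed. It was also lost without NC 1 (adjusted p = 0.0819) or NC 3 (adjusted p = 0.0603). Without HFCF 1 it was 0.82, with an adjusted p of 0.0471.

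LPCAT3 (ENSSSCG00000027205), the acyltransferase that inserts polyunsaturated chains into lysophospholipids, had 16.0, 13.4 and 14.8 FPKM in the NC group and 20.8, 16.7 and 23.3 FPKM in the HFCF group. The groups were separated, although HFCF 2 exceeded NC 1 only slightly. LPCAT3 averaged 14.7 ± 1.32 and 20.2 ± 3.34 FPKM (SD, n = 3 each), a log2 difference of 0.44 with an SE of 0.17 (95% interval 0.04 to 0.85, limma, unadjusted p = 0.0345, adjusted p = 0.0911). Relative to the median of all tested genes it was 0.12, and it was 0.09 to 0.29 under the 3 other scalings. Within a library, the log2 ratio of LPCAT3 to ACSL4 was 2.32, 1.49 and 2.001 in the NC group and 0.98, 1.25 and 1.83 in the HFCF group, and these overlapped.

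AIFM2 (ENSSSCG00000010258), the coenzyme Q oxidoreductase at the plasma membrane, had 6.99, 8.08 and 6.35 FPKM in the NC group and 5.12, 8.14 and 7.91 FPKM in the HFCF group. HFCF 1 was the lowest of the 6 libraries and HFCF 2 the highest. The log2 difference was -0.04 with an SE of 0.22 and a 95% interval from -0.57 to 0.49 (limma, adjusted p = 0.911), and it turned to 0.17 without HFCF 1 and 0.05 without NC 2. GCH1 (ENSSSCG00000035715), GTP cyclohydrolase, which catalyses the first step of tetrahydrobiopterin synthesis, had 0.77, 0.94 and 1.38 FPKM in the NC group and 2.90, 2.21 and 1.17 FPKM in the HFCF group. HFCF 1 and HFCF 2 were above all NC libraries, but HFCF 3 was below NC 3. Mean GCH1 was 1.03 ± 0.32 and 2.10 ± 0.87 FPKM (SD, n = 3 each), a ratio of 2.03 and a log2 difference of 0.91 with an SE of 0.38 (limma, unadjusted p = 0.0504, adjusted p = 0.119). Without HFCF 3 it was 1.26 and passed the test (adjusted p = 0.0431), and without HFCF 1 it was 0.64 (adjusted p = 0.271). It did not pass when any other library was left out, nor under the 3 other scalings (0.30 to 0.69).

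A scaling constant of a library cancels in the ratio of genes of that library, apart from the 0.1 FPKM added to each, which weighs most on SLC7A11. For that reason 7 ratios were compared by exact two-sided permutation of the 6 samples, which cannot give a p under 0.1. The log2 ratio of ACSL4 to GPX4 was -4.18, -3.71 and -3.66 in the NC group and -2.50, -3.30 and -3.60 in the HFCF group. All HFCF values were above all NC values, although HFCF 3 and NC 3 differed little. The difference of the means was 0.72 (exact permutation p = 0.1, adjusted p over the 7 ratios = 0.35), and it was 0.40 without HFCF 1. AIFM2 to GPX4 was -3.05, -2.94 and -2.86 in the NC group and -3.52, -3.07 and -3.31 in the HFCF group. These groups were also separated, here with HFCF lower, by -0.35 (exact permutation p = 0.1, adjusted p = 0.35). For the other 5 the groups overlapped, with differences of 0.33 for GPX1 to GPX4, 0.13 for GPX3 to GPX4, 0.80 for SLC7A11 to SLC3A2, -0.58 for LPCAT3 to ACSL4 and 0.59 for GCH1 to GPX4. The lowest exact permutation p among these 5 was 0.2. Single libraries set several of these sizes. GPX1 to GPX4 became -0.03 without HFCF 1, GPX3 to GPX4 became -0.47 without NC 3 and 0.75 without NC 1, and GCH1 to GPX4 ranged from 0.22 without HFCF 1 to 1.05 without HFCF 3. SLC7A11 to SLC3A2 was 0.57 with a pseudocount of 1 and 0.99 with 0.01.

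**Figure D3:**
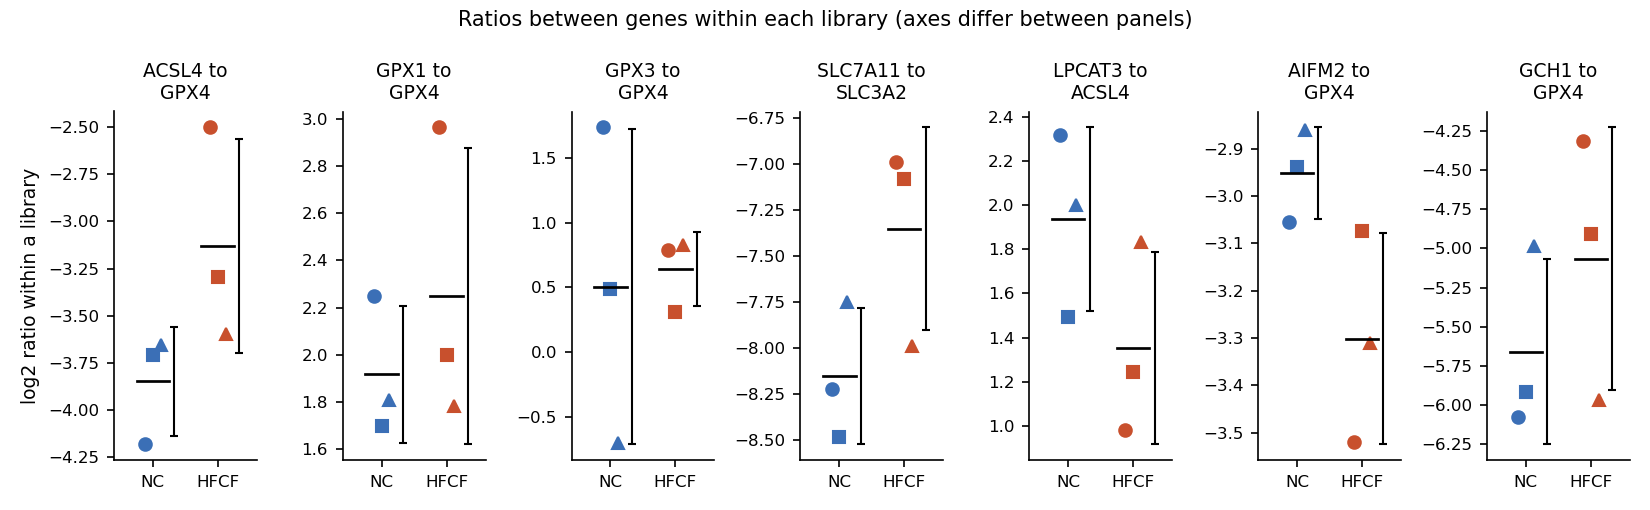
Log2 ratio of FPKM + 0.1 between pairs of genes within each library, with 1 panel per pair, 1 point per library (blue NC, red HFCF), bars at the means and whiskers of 1 SD, on axes that differ between panels. The groups are separated for ACSL4 to GPX4, with HFCF higher, and for AIFM2 to GPX4, with HFCF lower, and they overlap in the other 5 panels.

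Each HFCF library was the highest of its group for 3 of the 9 members, an even split. HFCF 1, HFCF 2 and HFCF 3 were the lowest for 3, 2 and 4. HFCF 1 had the highest GPX1, ACSL4 and GCH1 and the lowest GPX4, SLC3A2 and AIFM2. In HFCF 2, SLC7A11, SLC3A2 and AIFM2 were highest and GPX3 and LPCAT3 lowest. In HFCF 3, GPX3, GPX4 and LPCAT3 were highest and GPX1, SLC7A11, ACSL4 and GCH1 lowest. HFCF 1 also had the highest macrophage marker sum (2303 FPKM against 979 and 903 FPKM) and the lowest smooth muscle marker sum (8388 FPKM against 9768 and 13315 FPKM). Of the 13 macrophage markers 12 passed the test as higher in HFCF, and of the 9 smooth muscle markers 7 passed as lower, with no marker of either list at 0 in all libraries. T cell markers summed to 0.79 to 0.92 FPKM in NC and 2.72 to 11.7 FPKM in HFCF, again highest in HFCF 1. Endothelial markers overlapped between the groups, at 109 to 227 and 96.2 to 256 FPKM. Red cell markers summed to 2883 FPKM in HFCF 1, against 85.6 and 95.5 FPKM in the other HFCF libraries and 22.0 to 178 FPKM in NC. The part of these cell types, red cells included, in the levels of ACSL4, GPX1, GCH1 and SLC3A2 was not tested. HFCF 2 and HFCF 3 were also above every NC library both in ACSL4 and in the macrophage sum, which restates that both were separated by diet. All HFCF values lay above all NC values in 36.1% of tested genes, so this does not tell whether the 2 are linked.

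**Figure D4:**
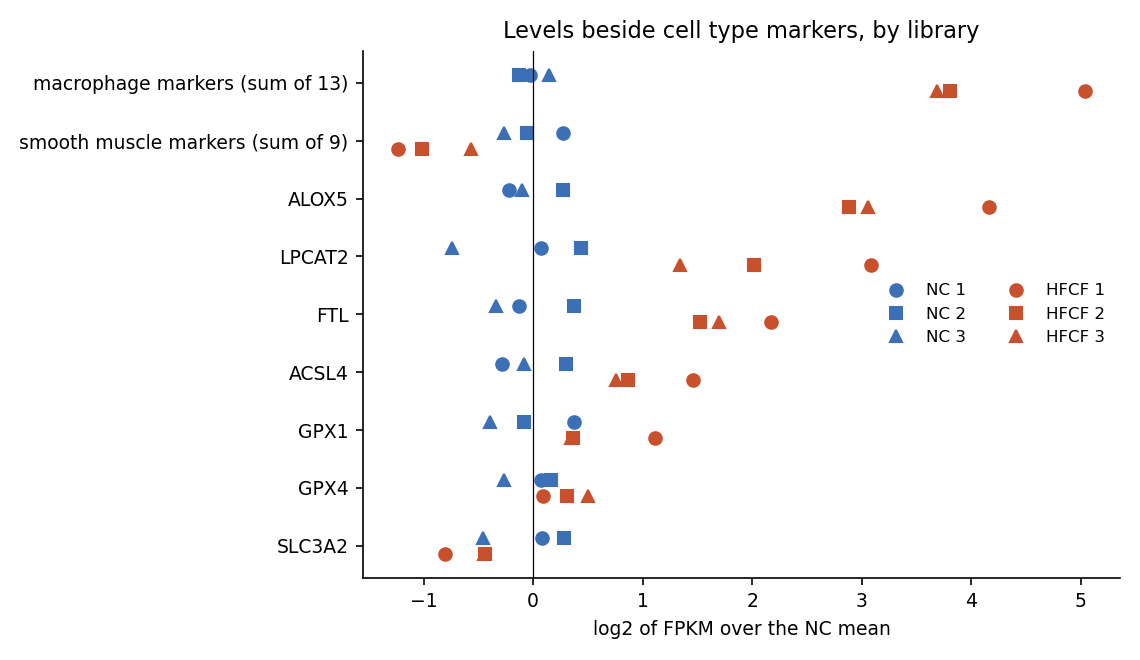
Log2 of FPKM relative to the NC mean in every library (blue NC, red HFCF, shape for replicate number) for summed macrophage and smooth muscle markers and for 7 genes. HFCF 1 is the highest library for macrophage markers, ALOX5, LPCAT2, FTL, ACSL4 and GPX1 and the lowest for smooth muscle markers and SLC3A2. The 7 genes were picked for display. Of the members not drawn, GCH1 was also highest in HFCF 1, and GPX3, SLC7A11, LPCAT3 and AIFM2 were not. GPX4 overlaps between the groups on these deposited values, with HFCF 1 among the NC libraries and HFCF 2 and HFCF 3 above them.

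To place the 9 genes in their pathway, 110 further genes were listed in 8 groups by function, 100 of them were in the table and 93 were tested. Of the 93, 25 rose (26.9%) and 6 fell (6.45%), close to the 22.8% and 6.16% of all tested genes, and their median of 0.46 was 0.14 above that of all tested genes. The split depended on scaling, with 13 higher and 13 lower after median-ratio scaling, 9 and 11 after quantile normalization and 15 and 9 after rescaling to TPM. GPX7 and GPX8, peroxidases of the endoplasmic reticulum, were the tested members among the other glutathione peroxidases, since GPX2, GPX5 and GPX6 were below the filter. GPX8 rose from 7.91 ± 1.59 to 14.4 ± 3.49 FPKM (SD, n = 3 each). Its log2 difference was 0.85 (limma, adjusted p = 0.0410) and did not pass under any of the 3 other scalings, nor without any 1 library other than HFCF 1 (adjusted p 0.0548 to 0.126). GPX7 had a log2 difference of 0.21 (adjusted p = 0.640), which was negative under those scalings.

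In glutathione synthesis, reduction and cystine supply, 2 of 15 tested genes rose (13.3%) and none fell, against 22.8% and 6.16% of all tested genes. GCLC, the catalytic subunit of the enzyme that commits cysteine to glutathione, rose from 1.84 ± 0.17 to 3.37 ± 0.79 FPKM (SD, n = 3 each, log2 difference 0.82, limma, adjusted p = 0.0376). SLC25A39, the mitochondrial glutathione importer, rose from 11.8 ± 0.70 to 18.7 ± 2.42 FPKM (0.66, adjusted p = 0.0200). The other steps of the route did not pass the test. The modifier subunit GCLM of the same enzyme had a log2 difference of 0.76 (adjusted p = 0.207), glutathione synthetase GSS 0.64 (adjusted p = 0.165) and glutathione reductase GSR 0.70 (adjusted p = 0.0578). GSR was higher in all 3 HFCF libraries than in any NC library, as were 36.1% of all tested genes. It passed with a filter of a mean of 1 FPKM (adjusted p = 0.0484). GCLM passed without HFCF 1 (1.23, adjusted p = 0.0183) and GSS without NC 3 (0.98, adjusted p = 0.0245). Each of these 3 genes passed in no other of the 15 alternatives. Under the 3 other scalings none passed (0.29 to 0.45 for GSR, 0.11 to 0.53 for GCLM, 0.23 to 0.39 for GSS). Neither GCLC nor SLC25A39 passed under any of the 3 other scalings, and GCLC was lost without any 1 library other than HFCF 3 and SLC25A39 without NC 1, NC 3 or HFCF 3. NFE2L2, the transcription factor NRF2 that drives many genes of this route, ranged widely within each group, with 2.17, 11.2 and 3.92 FPKM in NC and 7.51, 37.9 and 27.2 FPKM in HFCF. The groups overlapped, and its log2 difference was 2.09 with an SE of 0.75 (limma, adjusted p = 0.0748). It passed without NC 2 (2.72, adjusted p = 0.0461), without HFCF 1 (2.78, adjusted p = 0.0296) and with a replicate block (adjusted p = 0.0148). It did not pass in the other alternatives, the 3 other scalings included (1.74 to 1.85).

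GPX4 needs selenocysteine. Of the 10 tested genes of selenoprotein synthesis and selenium delivery 4 rose (40%) and none fell, against 22.8% and 6.16% of all tested genes. SELENOP, the plasma carrier of selenium, rose from 88.8 ± 17.1 to 177 ± 30.3 FPKM (SD, n = 3 each, log2 difference 1.002, limma, adjusted p = 0.0112) and passed the test in all 15 alternatives. PSTK and SEPSECS, which convert seryl-tRNA to selenocysteinyl-tRNA in successive steps, and TRIT1, which modifies that tRNA, were the others. They rose by log2 differences of 1.03, 0.82 and 0.99 from NC means of 0.22, 0.60 and 1.10 FPKM (adjusted p = 0.0474, 0.0458 and 0.0200), and none of the 3 passed under another scaling. PSTK and SEPSECS also lost their calls when any 1 library was left out, and TRIT1 without NC 1, NC 2 or HFCF 2.

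Tetrahydrobiopterin synthesis, the route that GCH1 opens, did not move as a block. PTS, which catalyses the step after GCH1, had 5.67, 4.52 and 6.01 FPKM in NC and 20.1, 20.1 and 21.1 FPKM in HFCF. The HFCF libraries were nearly identical to one another and far above the NC libraries, with a log2 difference of 1.91 and an SE of 0.16 (limma, adjusted p = 0.000893). SPR, sepiapterin reductase, which completes the cofactor, fell from 12.2 ± 0.64 to 7.32 ± 1.16 FPKM (SD, n = 3 each, log2 difference -0.74, adjusted p = 0.0192). GCHFR, the feedback inhibitor of GCH1, rose from 5.56 ± 1.52 to 9.43 ± 1.05 FPKM (0.78, adjusted p = 0.0432), a call lost under the 3 other scalings and without any 1 library other than NC 3. In the coenzyme Q branch, which AIFM2 draws on, COQ8A, an atypical kinase needed for coenzyme Q synthesis, fell from 25.6 ± 1.10 to 17.5 ± 1.62 FPKM (-0.55, adjusted p = 0.0234). PTS, SPR and COQ8A kept their calls under the 3 other scalings, and PTS in all 15 alternatives. SPR was lost without NC 1 (adjusted p = 0.0687) and with a replicate block (0.0604), and COQ8A in 6 of the 15, without NC 1, NC 2, HFCF 2 or HFCF 3, without the variance trend and with the block (adjusted p 0.0520 to 0.0747). These were 2 genes that rose and 2 that fell among 16 tested (12.5% each), and 12 did not pass. Of all tested genes 22.8% rose and 6.16% fell.

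Among 17 other tested genes of acyl-CoA synthesis, phospholipid acylation, desaturation and ether lipids, 4 rose (23.5%) and 2 fell (11.8%). Of all tested genes 22.8% rose and 6.16% fell. FADS1, the desaturase that makes arachidonic acid, a preferred substrate of ACSL4, had 33.1, 26.6 and 27.4 FPKM in NC and 10.16, 6.36 and 7.17 FPKM in HFCF. Every HFCF library was below every NC library by a wide margin, with a log2 difference of -1.89 and an SE of 0.21 (limma, adjusted p = 0.00184), kept in all 15 alternatives. LPCAT2, an acyltransferase of inflammatory cells that also makes platelet-activating factor, rose from 0.89 ± 0.34 to 4.44 ± 2.74 FPKM (SD, n = 3 each, 2.09, adjusted p = 0.0186), a call lost under quantile normalization and without NC 1 or NC 3 (adjusted p 0.0526 to 0.0604). LPCAT1 rose by 0.83 (adjusted p = 0.0153) and LPCAT4, which acts on similar lysophospholipids, fell by 0.71 on the log2 scale (adjusted p = 0.0347). The LPCAT1 call was lost under the 3 other scalings (0.48 to 0.58, adjusted p 0.0536 to 0.0783), with the block and without NC 1, and that of LPCAT4 held under those scalings but was lost without any 1 library other than HFCF 2. The acyl-CoA synthetases ACSL1 and ACSL5 rose by 1.18 and 0.81 (adjusted p = 0.0218 and 0.0196). ACSL1 was lost under median-ratio scaling (0.83, adjusted p = 0.0679), quantile normalization (0.77, adjusted p = 0.0886) and without NC 1, NC 3, HFCF 1 or HFCF 2, and ACSL5 under the 3 other scalings (0.46 to 0.56), with the block and without NC 1 or NC 3.

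Of the genes listed with the start of lipid peroxidation, 2 of 6 tested rose (33.3%) and none fell. The shares of all tested genes were 22.8% and 6.16%. ALOX5, the lipoxygenase of leukotriene synthesis, had 0.65, 0.91 and 0.70 FPKM in NC and 13.5, 5.56 and 6.26 FPKM in HFCF. It was the largest log2 difference among the 93 pathway genes, at 3.22 with an SE of 0.36 (limma, adjusted p = 0.00193), and HFCF 1 was again the highest. Its partner ALOX5AP rose from 10.9 ± 3.51 to 32.3 ± 10.05 FPKM (SD, n = 3 each, 1.55, adjusted p = 0.0122), lost without NC 1 (adjusted p = 0.0520). ALOX15, the lipoxygenase most often named with ferroptosis, had 0.92 ± 0.29 and 0.996 ± 0.166 FPKM, a log2 difference of 0.13 (adjusted p = 0.774) that was negative under the 3 other scalings. ALOX5 and LPCAT2 are abundant in macrophages, whose markers summed 19.9 times higher in the HFCF group, and the part of these cells in their levels was not tested.

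Of 15 tested genes that regulate sensitivity to ferroptosis 5 rose (33.3%) and none fell, against 22.8% and 6.16% of all tested genes. SAT1, a polyamine acetyltransferase, rose from 94.9 ± 24.8 to 443 ± 249 FPKM (SD, n = 3 each, log2 difference 2.12, limma, adjusted p = 0.00882) and CISD2, an iron-sulfur protein of the endoplasmic reticulum and mitochondrial surface, from 1.19 ± 0.12 to 5.33 ± 2.10 FPKM (2.01, adjusted p = 0.00440). DPP4, HSPB1 and EMC2 rose by 1.54, 1.09 and 0.93 (adjusted p = 0.0121, 0.0164 and 0.0267). DPP4 was lost under quantile normalization (0.91, adjusted p = 0.0647), HSPB1 under median-ratio scaling, quantile normalization and without HFCF 2 (adjusted p 0.0502 to 0.0741), and EMC2 under the 3 other scalings (0.27 to 0.74) and without any 1 library other than NC 2. Iron handling had 5 genes that rose (41.7%) and 2 that fell (16.7%) among 12 tested, against the same shares of all tested genes. Ferritin light chain FTL, which stores iron, rose from 399 ± 105 to 1412 ± 342 FPKM (1.83, adjusted p = 0.00405), and NCOA4, the receptor that takes ferritin to lysosomes, from 6.48 ± 0.96 to 12.99 ± 1.45 FPKM (0.997, adjusted p = 0.00768). The importer TFRC, the exporter SLC40A1 and the iron regulatory gene IREB2 rose by 1.68, 1.31 and 1.14 (adjusted p = 0.0164, 0.00974 and 0.0135). TFRC was lost under quantile normalization (1.13, adjusted p = 0.0553) and without NC 1 or HFCF 2, and IREB2 under quantile normalization (0.62, adjusted p = 0.0845). The iron chaperone PCBP1 and the other iron regulatory protein, ACO1, fell by 0.54 and 0.63 on the log2 scale (adjusted p = 0.0189 and 0.0265), calls kept under the 3 other scalings but lost without NC 1 or HFCF 2, and for ACO1 also without NC 2 or HFCF 3. FTL, NCOA4, SLC40A1, SAT1 and CISD2 passed in all 15 alternatives.

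**Figure D5:**
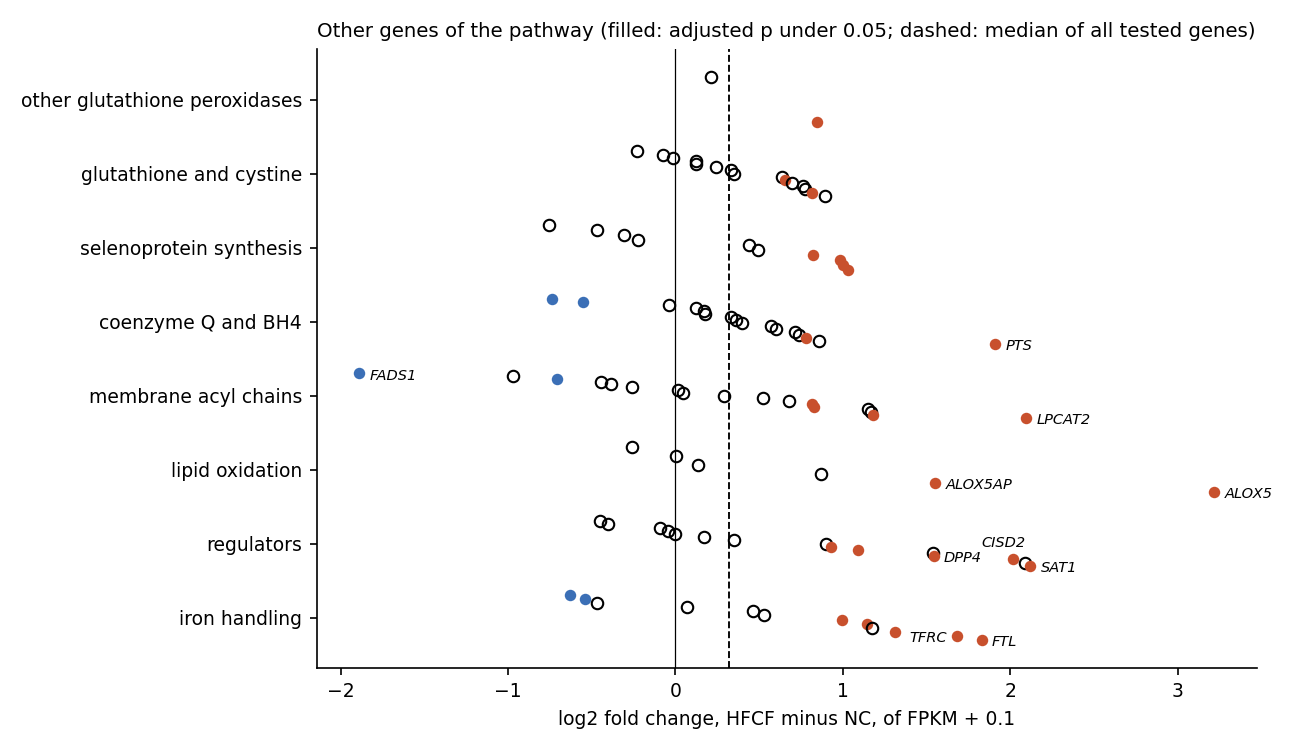
Log2 difference of FPKM + 0.1, HFCF minus NC, of the 93 tested pathway genes in 8 lists (vertical spread within a list is for display), where filled symbols have an adjusted p under 0.05 (red higher, blue lower), the dashed line is the median of all tested genes and called genes beyond 1.5 in size carry names. ALOX5 is farthest to the right and FADS1 farthest to the left, and most genes are open symbols on both sides of the dashed line, GPX7 and ALOX15 among those whose sign changes under other scalings.

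The genes whose log2 levels followed a member most closely over the 6 libraries were listed as a description, since the libraries of a diet share that diet. For GPX4 these were PALM, TST and RNF5, with Pearson r of 0.998, 0.991 and 0.990 among 9581 candidates. For SLC7A11 they were UQCC1, EXOC3L2 and IGFBP2, with r of 0.977, 0.971 and 0.969 among 9582. These are the highest of all candidates over 6 libraries, and the SLC7A11 levels behind them are very low.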

How the data were processed

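Abdominal aorta RNA of 3 NC and 3 HFCF pigs was sequenced as paired-end reads. Per the labels, cutadapt 1.9, FastQC and HISAT2 were used, and the methods add StringTie. Other versions are not given in the sources used here. The authors deposited FPKM per gene and library, with 0.0001 standing for 0, and these values were used as deposited. Read counts were not used here. Relative depths came from the steps between values under 0.3 FPKM of 18010 genes with 1 transcript. The methods name an earlier genome build than the reference table at hand, so no coordinates or sequences are given.

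Values were analysed as log2(FPKM + 0.1) for genes with a mean of at least 0.1 FPKM, with limma 3.58.1 in R 4.3.3 (diet as the only factor, eBayes with trend, two-sided), adjusting p-values for the whole tested table by Benjamini-Hochberg. A fold change on this scale understates that of low genes. The fit was checked on simulated data. Median-ratio scaling set libraries to a common median ratio, and TPM gave all libraries the same total.

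Members and lists were chosen with earlier results of these data known. Named were the 9 members, in each list the called genes (at most the 4 largest), and TFRC, SLC40A1, FTL, FTH1, NCOA4, GCLC, GCLM, GSS, GSR, NFE2L2, LPCAT2, ALOX15, GPX7 and GPX8 whatever their result. EMC2, ACSL5, LPCAT4, PCBP1 and ACO1 fell outside this rule and were named after their values were seen. GGT1, SEPHS2, COQ3, ALOX12, PEBP1, CISD1, SLC11A2, FTH1 and HMOX1 were not analysed here. The identifier of 8 members carried the same symbol in the reference table of names, and GPX1 was taken by its symbol. Lists of fibroblast, adipocyte, red cell and skeletal muscle markers had 1 of 7, 0 of 6, 0 of 2 and 0 of 4 tested genes called higher, and 0, 1, 0 and 0 called lower. T cell markers had 2 of 6 and endothelial markers 0 of 7 called higher, with none lower.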

Additional observations from a re-analysis of the deposited data

How the results depend on the processing

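The fit was repeated under 15 alternatives, and the cause of the changes below was not tested. Of the 31 pathway genes that changed, 9 passed in all alternatives and 15 under all 3 scalings. Under median-ratio scaling, quantile normalization and TPM, tested genes that rose numbered 2035, 1748 and 2229 in place of 3505, those that fell 1969, 1782 and 1527 in place of 948, and the share of calls in the higher direction was 50.8%, 49.5% and 59.3% in place of 78.7%. Members that rose numbered 0 in place of 1 under each of the 3, 0 met the study's thresholds in place of 1, and 1 (SLC3A2) fell under median-ratio scaling and TPM. Pathway genes that rose numbered 13, 9 and 15 in place of 25, and those that fell 13 and 11 under the first 2 in place of 6, and 3 without the eBayes trend. With a pseudocount of 0.01, 2 members met the study's thresholds. AIFM2 to GPX4 was -0.62 under quantile normalization, which gave no value for SLC7A11 to SLC3A2. Signs turned for GPX4 (-0.046, median-ratio scaling), GPX7 (-0.14, -0.19 and -0.042 under the 3 scalings, and -0.054 to 0.41 leaving out 1 library, below 0 without NC 3 or HFCF 3), ALOX15 (-0.19, -0.51 and -0.11 under the scalings, and -0.096 to 0.33 leaving out 1 library, below 0 without NC 1), GPX3 (-0.29 to 1.10, below 0 without NC 3) and AIFM2 (-0.16 to 0.17, above 0 without NC 2 or HFCF 1). Leaving out 1 library gave 2421 to 3596 called genes in place of 4453 (1979 to 2815 that rose, 442 to 786 that fell), 0 to 2 members that rose (0 without NC 1 or NC 3, 2 without HFCF 3), 0 to 1 that fell (1 without NC 3), 0 to 2 by the study's thresholds (0 without NC 1 or HFCF 1, 2 without NC 3 or HFCF 3), and 11 to 23 pathway genes that rose (11 without NC 1, 16 without HFCF 2) and 1 to 5 that fell (1 without NC 1, 3 without NC 2 or HFCF 2). Replicate numbers did not pair the libraries (correlation of same-numbered deviations 0.0206, -0.0795 and -0.0724, and no library was closest to its own number). With the replicate block 2772 genes were called (2232 rose, 540 fell), 0 members rose (ACSL4, adjusted p = 0.0637), NFE2L2 passed (adjusted p = 0.0148) and 1 pathway gene fell. The planned search of promoter windows for short motifs, and its looser form, was not run, since no promoter sequences were used here. SLC7A11 was below the filter on low values, and the 95% interval of GPX3 spanned -1.05 to 1.94.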
